A study of Mus musculus with 6 samples.

Results

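Mitotic kinesins are the microtubule motors that assemble the spindle, move chromosomes on it and divide the cell at its end. The set described here holds 10 genes, Kif2c, Kif4, Kif11, Kif14, Kif15, Kif18a, Kif20a, Kif22, Kif23 and Kifc1, chosen by symbol, and all 10 were among the 41388 genes of the count table. They were measured by RNA-seq of mouse liver in 3 Atp7b-/- libraries and 3 wild type libraries. Atp7b encodes the copper-transporting ATPase whose loss causes Wilson disease, in which copper accumulates in the liver. All mice were 6 weeks old, carried a mixed background of C57BL and 129S6/SvEv, and ate a diet with 16 ppm copper, so the genotypes shared age, background and diet. Atp7b-/- replicates 1 and 2, labelled male, and wild type replicates 2 and 3, labelled female, were read from 1 end. Atp7b-/- replicate 3, labelled female, and wild type replicate 1, labelled male, were read from both ends. The labels do not say that the libraries came from separate animals, so p-values measure only the spread between these libraries.

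Kinesins hydrolyse ATP to walk along microtubules or to take apart their ends. In a dividing cell some of them push the spindle poles apart or focus them, some carry or pull chromosomes, and some gather at the midzone between the separating chromosomes to build the contractile ring. Most genes of this kind are transcribed late in the cell cycle, and most hepatocytes of an adult liver are quiescent. The transcription of many of them is known to depend on the cell cycle genes homology region (CHR), a short element near the start site bound by the MuvB complexes, often placed downstream of CCAAT boxes bound by NF-Y.

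Stretches of 7 promoters are shown because they hold the elements, or lack them, at genes that differ in their response. They come from RefSeq on GRCm38.p6 and run from 80 bases before the start site to 50 bases after it, 5′ to 3′ on the strand of the gene. Their positions are Kif11 at chr19:37376302-37376431 on the plus strand, Kif15 at chr9:122951001-122951130 on the plus strand, Kifc1 at chr17:33890584-33890713 on the minus strand, Kif22 at chr7:127042371-127042500 on the minus strand, Kif4 at chrX:100625985-100626114 on the plus strand, Kif18a at chr2:109280658-109280787 on the plus strand and Kif23 at chr9:61946750-61946879 on the minus strand. Capitals mark each match to the CHR letters TTTGAA or to the CCAAT box CCAAT, read on either strand, so that TTCAAA and ATTGG are the same elements on the opposite strand.
Kif11: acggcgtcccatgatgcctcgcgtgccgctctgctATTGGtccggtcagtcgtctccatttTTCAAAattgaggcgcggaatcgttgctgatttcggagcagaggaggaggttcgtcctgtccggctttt
Kif15: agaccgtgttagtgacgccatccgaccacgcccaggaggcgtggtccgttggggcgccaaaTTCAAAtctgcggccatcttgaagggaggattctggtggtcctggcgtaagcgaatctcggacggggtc
Kifc1: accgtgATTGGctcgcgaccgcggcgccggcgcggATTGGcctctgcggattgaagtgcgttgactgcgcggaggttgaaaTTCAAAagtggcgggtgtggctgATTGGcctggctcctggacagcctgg
Kif22: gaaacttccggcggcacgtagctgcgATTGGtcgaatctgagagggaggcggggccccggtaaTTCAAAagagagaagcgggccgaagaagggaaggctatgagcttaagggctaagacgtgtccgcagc
Kif4: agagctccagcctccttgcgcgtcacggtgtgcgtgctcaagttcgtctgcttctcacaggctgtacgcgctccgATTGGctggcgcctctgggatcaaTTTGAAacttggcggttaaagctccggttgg
Kif18a: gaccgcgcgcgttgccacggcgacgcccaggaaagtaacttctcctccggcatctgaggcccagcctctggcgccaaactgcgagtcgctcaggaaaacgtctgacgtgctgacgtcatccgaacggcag
Kif23: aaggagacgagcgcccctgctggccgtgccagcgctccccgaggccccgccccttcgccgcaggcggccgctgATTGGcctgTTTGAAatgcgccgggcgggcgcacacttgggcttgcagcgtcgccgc

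RefSeq gave a promoter for 9 of the 10 members, the exception being Kif20a. Over the full window, from 250 bases before the start to 50 after, TTTGAA was found on either strand in 8 of the 9, all but Kif18a, against 17.9% of 32851 promoters. In Kif4, Kif11, Kif15, Kif22, Kif23 and Kifc1, which make 6 of the 9, it lay no more than 50 bases before the start or after it, as it did in 4.94% of all promoters. CCAAT was found in 6 of the 9, those of Kif4, Kif11, Kif14, Kif22, Kif23 and Kifc1, against 37.4% of all promoters. The E2F letters GGCGGGAA were in 0 of the 9, against 2.19% of all promoters. Only these exact letters were searched, so the 0 does not show that other forms of the E2F site are absent. No match to 1 of the 3 motifs overlapped a match to another. The RefSeq start lay 3867 bases from the gene start in the annotation used for the coordinates below for Kif2c, 1505 bases for Kif14 and 328 bases for Kif4, and at most 51 bases for the other 6.

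**Figure D1:**
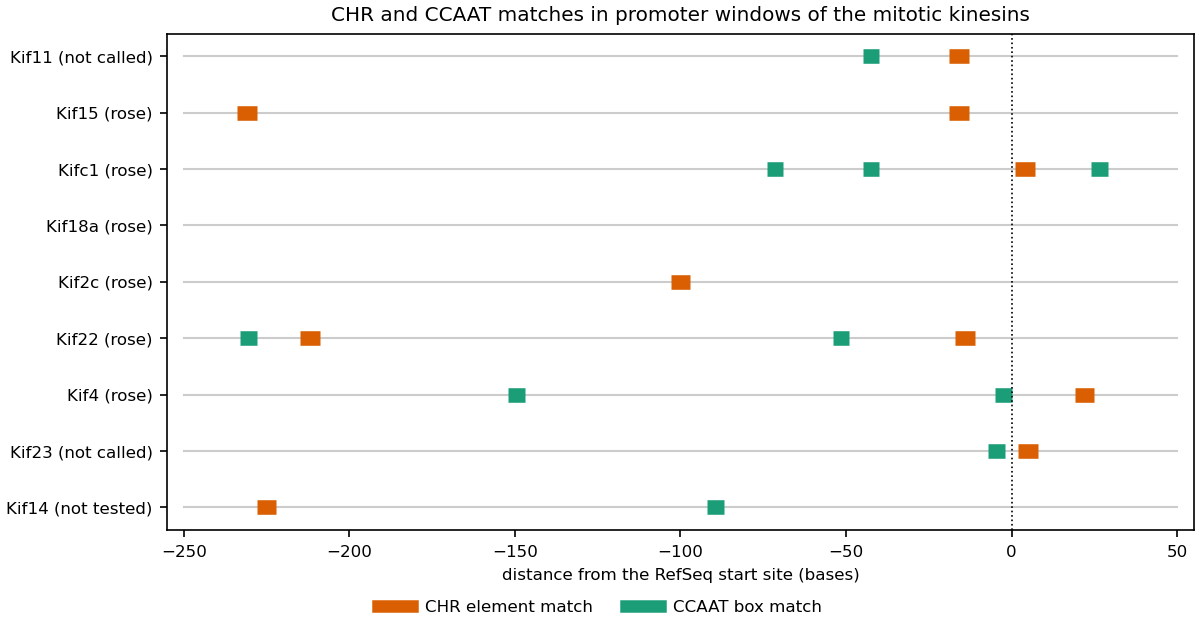
Positions of the TTTGAA and CCAAT matches, on either strand, in the RefSeq promoters of 9 mitotic kinesins, in bases from the start site. TTTGAA matches at 6 of the 9 genes lie no more than 50 bases before the start or after it, and the Kif18a promoter holds no match to either motif.

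Reads assigned to genes numbered 16597683, 6746192 and 25973968 in Atp7b-/- replicates 1, 2 and 3, against 23651080, 12258024 and 5919389 in wild type replicates 1, 2 and 3. The 10 kinesins were low: their summed counts were 471, 173 and 1241 across the Atp7b-/- libraries, against 192, 45 and 26 in the wild type libraries. Atp7b itself stood at 19.2, 13.7 and 13.3 CPM (counts scaled to library size with TMM factors) across the Atp7b-/- libraries, against 25.3, 85.2 and 59.7 CPM in the wild type libraries, with a log2 fold change of -1.73 and a Benjamini-Hochberg adjusted p of 0.02 by the edgeR quasi-likelihood test. This call was lost without Atp7b-/- replicate 1 (adjusted p 0.0969), Atp7b-/- replicate 2 (0.0664) or wild type replicate 3 (0.0686), and with no layout term (0.514). A pair of libraries went against the labelled sex. Xist stood at 0.117, 0.702 and 0.482 CPM across the Atp7b-/- libraries, against 1.01, 371 and 17.4 CPM in the wild type libraries. The Y-linked Ddx3y stood at 29.5, 37.7 and 126 CPM across the Atp7b-/- libraries, against 161, 0.34 and 28 CPM in the wild type libraries. Atp7b-/- replicate 3, labelled female, thus held the male pattern, and wild type replicate 3, also labelled female, held both transcripts. All Atp7b-/- libraries were low in Xist with Ddx3y present, so sex by transcripts is partly tied to genotype. The number of genes called in each list is also given without Atp7b-/- replicate 3 and wild type replicate 3. That setting compares Atp7b-/- replicates 1 and 2 with wild type replicate 2 alone, since wild type replicate 1 is absorbed by the layout term. It has 1 residual degree of freedom, assumes that the lone wild type library varies like the Atp7b-/- libraries, and cannot tell genotype and sex apart.

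Of the 10 kinesins, 6 rose in Atp7b-/- liver, namely Kif2c, Kif4, Kif15, Kif18a, Kif22 and Kifc1, and 0 fell. Their fold changes ran from 6.56-fold for Kif22 to 11.7-fold for Kif15. Kif11, Kif20a and Kif23 did not pass the test, and Kif14 had too few counts to be tested. The call was an adjusted p under 0.05 in edgeR's quasi-likelihood test over the 12988 genes that passed the count filter, with layout (reads from 1 end or from both ends) as a covariate. Over all genes tested, 1.9% were called higher, 0.585% lower and 2.49% in either direction. The median log2 fold change of the 9 kinesins tested was 2.97, beside a median of -0.01 over all genes tested. The 6 that rose passed the count filter only through the Atp7b-/- libraries, so the filter favours a rise among them. All 6 calls were lost when either library read from both ends was left out, with edgeR adjusted p from 0.0527 to 0.212 without wild type replicate 1 and from 0.0757 to 0.271 without Atp7b-/- replicate 3. Summed over the 10 kinesins, the level was 27.5, 24.3 and 42.7 CPM across the Atp7b-/- libraries, against 8.78, 3.82 and 4.82 CPM in the wild type libraries, so the groups did not overlap. In bulk liver, fewer or more cells of a type and less or more RNA per cell cannot be told apart.

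**Figure D2:**
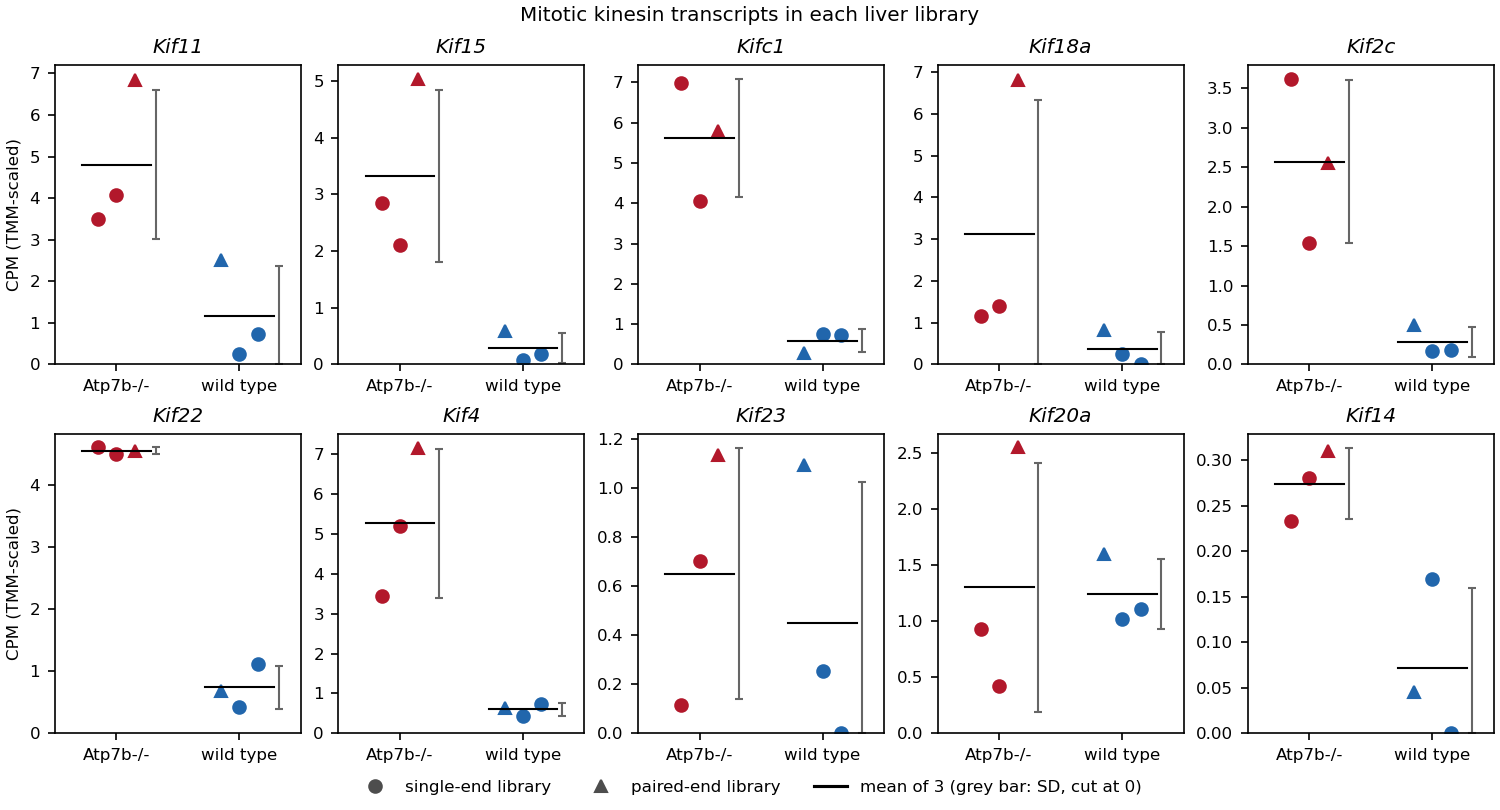
CPM after TMM scaling of the 10 mitotic kinesins in each library, Atp7b-/- on the left and wild type on the right of each panel; marker shapes give the layout and horizontal lines the group means. Every Atp7b-/- library lies above every wild type library for 8 of the 10 genes, the exceptions being Kif20a and Kif23.

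Kif15, Kifc1 and Kif11 make and hold the bipolar spindle, and of these Kif15 and Kifc1 rose. Kif15, a plus-end motor that helps keep the poles apart, lies on chromosome 9 from 122951046 to 123018733 on the plus strand (ENSMUSG00000036768; gene coordinates throughout are those of GENCODE on GRCm38). It had 2.86, 2.10 and 5.03 CPM in Atp7b-/- replicates 1, 2 and 3, against 0.594, 0.085 and 0.185 CPM in wild type replicates 1, 2 and 3. Every Atp7b-/- library was above every wild type library, and in each group the library read from both ends was the highest. The means were 3.33 ± 1.52 CPM in Atp7b-/- and 0.288 ± 0.27 CPM in wild type (SD, n = 3 each), from 210 and 15 counts in all. The log2 fold change was 3.55 with a standard error (SE) of 0.52 and an edgeR adjusted p of 0.00813.

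Kifc1, a minus-end motor that focuses the spindle poles, lies on chromosome 17 from 33875659 to 33890661 on the minus strand (ENSMUSG00000079553). It had 7.0, 4.07 and 5.79 CPM across the Atp7b-/- libraries, against 0.274, 0.765 and 0.741 CPM in the wild type libraries. The groups were far apart, with the lowest Atp7b-/- library well above the highest wild type library. The means were 5.62 ± 1.47 CPM in Atp7b-/- and 0.594 ± 0.277 CPM in wild type (SD, n = 3 each), a 10.6-fold difference with a log2 fold change of 3.41, SE 0.48, and an edgeR adjusted p of 0.00677. Of the 54-base windows of the Kifc1 transcripts, 36.1% also occur in its near-identical copy Kifc5b, on chromosome 17 from 26917091 to 26932583, so the counting could split reads between them. With the counts of both genes summed, an alternative chosen after seeing the data, the log2 fold change was 3.74 with an adjusted p of 0.00156.

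Kif11, the motor that slides antiparallel microtubules apart to separate the poles, lies on chromosome 19 from 37376403 to 37421859 on the plus strand (ENSMUSG00000012443). It had 3.50, 4.07 and 6.85 CPM across the Atp7b-/- libraries, against 2.51, 0.255 and 0.741 CPM in the wild type libraries. The groups did not overlap, but wild type replicate 1 lay near the lowest Atp7b-/- library. The means were 4.81 ± 1.80 CPM in Atp7b-/- and 1.17 ± 1.19 CPM in wild type (SD, n = 3 each), and the log2 fold change of 2.26 (95% interval 1.15 to 3.37) had an edgeR adjusted p of 0.0506, just past the threshold. It was called by DESeq2, with an adjusted p of 0.00166.

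The motors that act on chromosomes and kinetochores are Kif2c, Kif18a, Kif22 and Kif4, and all 4 rose. Kif4, a chromokinesin that helps shape mitotic chromosomes and, with Prc1, sets the length of the midzone microtubules, lies on chromosome X from 100625737 to 100727214 on the plus strand (ENSMUSG00000034311). It had 3.44, 5.19 and 7.16 CPM across the Atp7b-/- libraries, against 0.640, 0.425 and 0.741 CPM in the wild type libraries. The groups were well apart. The means were 5.26 ± 1.86 CPM in Atp7b-/- and 0.602 ± 0.162 CPM in wild type (SD, n = 3 each), a 9.10-fold difference with a log2 fold change of 3.19, SE 0.43, and an edgeR adjusted p of 0.00548, the lowest of the 10 members. Pdzd11, on the opposite strand, covers 15.1% of the Kif4 exon bases; its own log2 fold change was 0.48, at an adjusted p of 0.36.

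Kif22, which binds chromosome arms and pushes them away from the poles, lies on chromosome 7 from 127027729 to 127042471 on the minus strand (ENSMUSG00000030677). It had 4.61, 4.49 and 4.55 CPM across the Atp7b-/- libraries, against 0.686, 0.425 and 1.11 CPM in the wild type libraries. The Atp7b-/- libraries were nearly level with each other whatever their layout, and all lay above the wild type libraries. The means were 4.55 ± 0.0578 CPM in Atp7b-/- and 0.741 ± 0.347 CPM in wild type (SD, n = 3 each), a 6.56-fold difference with a log2 fold change of 2.71, SE 0.43, and an edgeR adjusted p of 0.012.

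Kif2c, which removes tubulin from microtubule ends at centromeres and so helps correct wrong attachments, lies on chromosome 4 from 117159639 to 117182639 on the minus strand (ENSMUSG00000028678). It had 3.61, 1.54 and 2.55 CPM across the Atp7b-/- libraries, against 0.503, 0.170 and 0.185 CPM in the wild type libraries. The groups did not overlap, and the 3 wild type libraries held only 14 counts of it, against 147 in the Atp7b-/- libraries. The means were 2.57 ± 1.04 CPM in Atp7b-/- and 0.286 ± 0.188 CPM in wild type (SD, n = 3 each), with a log2 fold change of 3.05, SE 0.60, and an edgeR adjusted p of 0.0319. The call was lost without wild type replicate 2 (adjusted p 0.0871), wild type replicate 3 (0.0846) or Atp7b-/- replicate 1 (0.13).

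Kif18a, which limits chromosome movements at the metaphase plate by damping plus-end growth, lies on chromosome 2 from 109280738 to 109341747 on the plus strand (ENSMUSG00000027115). It had 1.17, 1.40 and 6.82 CPM across the Atp7b-/- libraries, against 0.823, 0.255 and 0 CPM in the wild type libraries, where 3 counts would have been 0.556 CPM in wild type replicate 3. The groups did not overlap, but the libraries read from both ends were the highest of each group and Atp7b-/- replicate 3 was far above the rest. The means were 3.13 ± 3.20 CPM in Atp7b-/- and 0.359 ± 0.421 CPM in wild type (SD, n = 3 each), with a log2 fold change of 2.97, SE 0.56, and an edgeR adjusted p of 0.0261. The call was lost without Atp7b-/- replicate 1 (adjusted p 0.0561) or Atp7b-/- replicate 2 (0.0578). Its promoter is the 1 of the 9 without TTTGAA in the window.

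Kif23, Kif20a and Kif14 also act at the midzone or in cytokinesis. Of these, 0 of the 2 tested were called, against 2.49% of all genes tested in either direction. It was also 0 by DESeq2 and by limma-voom, where 3.6% and 2.23% of all genes were called higher. At an unadjusted p under 0.05 in edgeR it was 0 of the 2, against 14.5% of all genes tested. With only 2 genes tested, a count of 0 is near these shares and is no result about midzone motors. Kif23, Kif20a and Kif14 are not all such motors: Kif4, which acts at the midzone too, and Kif20b, a cytokinesis motor outside the set, both rose. Kif23, the motor subunit of centralspindlin, lies on chromosome 9 from 61915905 to 61946774 on the minus strand (ENSMUSG00000032254). It had 0.117, 0.702 and 1.14 CPM across the Atp7b-/- libraries, against 1.10, 0.255 and 0 CPM in the wild type libraries. The groups overlapped throughout, and in each the library read from both ends was the highest. The log2 fold change was 0.38 with a 95% interval of -1.41 to 2.17 and an edgeR adjusted p of 0.88, from 40 counts in Atp7b-/- and 27 in wild type. Its promoter holds TTTGAA and CCAAT near the start, as printed above.

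Kif20a, which brings the chromosomal passenger complex to the midzone, lies on chromosome 18 from 34624613 to 34633277 on the plus strand (ENSMUSG00000003779). It had 0.933, 0.421 and 2.55 CPM across the Atp7b-/- libraries, against 1.60, 1.02 and 1.11 CPM in the wild type libraries. The groups overlapped: both Atp7b-/- libraries read from 1 end were below all wild type libraries, and the library read from both ends was above them. The means were 1.30 ± 1.11 CPM in Atp7b-/- and 1.24 ± 0.312 CPM in wild type (SD, n = 3 each), and the log2 fold change was 0.01, with a 95% interval of -1.18 to 1.2 and an edgeR adjusted p of 0.998. Its interval excludes the log2 fold changes of all 6 kinesins that rose. Cdc23, on the opposite strand, covers 29.3% of the Kif20a exon bases, and it averaged 21.4 ± 2.64 CPM in Atp7b-/- and 14.8 ± 2.82 CPM in wild type (SD, n = 3 each). The strand setting of the counting is not named in the labels or notes, so reads of Kif20a and Cdc23 may not have been told apart.

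Kif14, which binds Prc1 and citron kinase at the midbody, lies on chromosome 1 from 136466343 to 136531511 on the plus strand (ENSMUSG00000041498). It had 0.233, 0.281 and 0.310 CPM across the Atp7b-/- libraries, against 0.0457, 0.170 and 0 CPM in the wild type libraries. Every Atp7b-/- library was above every wild type library, but all values were near the limit of detection. The 3 Atp7b-/- libraries held 15 counts and the 3 wild type libraries 3 counts, a ratio of 3.66 after scaling for depth, with an exact 95% interval of 1.04 to 19.7 that covers counting error only. It failed the count filter, and with no filter the log2 fold change was 1.74, SE 1.23, with an edgeR adjusted p of 0.716.

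**Figure D3:**
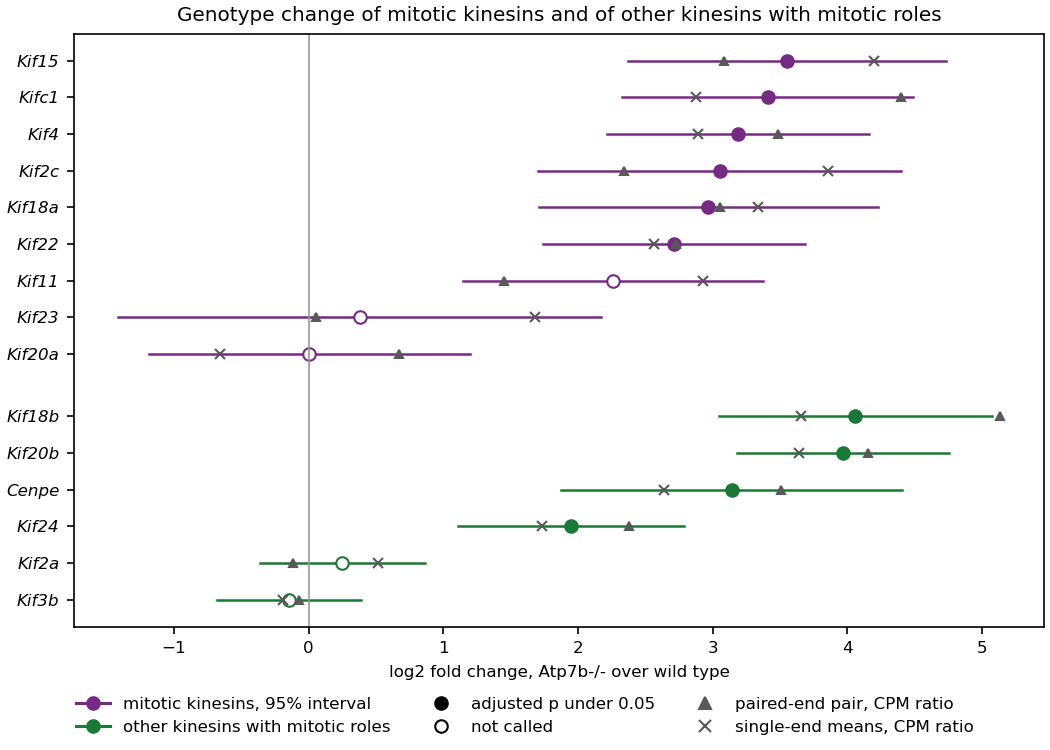
Log2 fold change, Atp7b-/- over wild type, of the tested mitotic kinesins and, below them, of the tested further kinesins with roles in mitosis. Bars give the 95% interval from edgeR, and filled points were called at an adjusted p under 0.05. In the first group the 6 called genes lie between 2.71 and 3.55, Kif11 lies at 2.26, and the intervals of Kif23 and Kif20a include 0. In the second group the 4 called genes lie between 1.95 and 4.06, and the intervals of Kif2a and Kif3b include 0.

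Every Atp7b-/- library was above every wild type library for 7 of the 9 kinesins tested, against 5.23% of all genes tested, and for Kif14 as well. These 7 passed the count filter only through the Atp7b-/- libraries, where they were high, so the filter itself favours such separation. The shares over all genes tested in this paragraph are therefore not a like comparison. Every Atp7b-/- library was below every wild type library for 0 of the 9, against 3.28% of all genes tested. In the libraries read from both ends, 9 of the 9 kinesins tested, and Kif14, were higher in Atp7b-/- replicate 3 than in wild type replicate 1, as were 49.3% of all genes tested. In the libraries read from 1 end, 7 of the 9, and Kif14, had both Atp7b-/- libraries above both wild type libraries, as did 23.5% of all genes tested. The difference between the genotype changes of the layouts, which is also the difference between the labelled sexes, was called for 0 of the 9 (edgeR adjusted p from 0.987 to 1), against 0.0154% of all genes tested. At an unadjusted p under 0.05 it was 0 of 9, against 4.57% of all genes tested. Its log2 values ran from -1.66 for Kif11 to 1.48 for Kifc1. With 1 library of each genotype read from both ends, a p that misses the threshold does not show that the layouts act alike.

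The number of kinesins called depended on the libraries and on the layout term. DESeq2 called 7 of 9, where 3.6% of all genes were called higher, and limma-voom called 6 of 9, where 2.23% were. Upper quartile factors gave 7 of 9 (2.01% of all genes), no filter 7 of 10 (2.67%), and Kifc1 and Kifc5b summed 6 of 9 (1.89%). At an adjusted p under 0.01, 3 of 9 were called, namely Kif4, Kif15 and Kifc1, against 0.986% of all genes. Leaving out Atp7b-/- replicate 1 left 4 of 9 (1.32% of all genes called higher), and leaving out Atp7b-/- replicate 2 left 5 (1.71%). Leaving out wild type replicate 2 left 5 (1.75%), as did leaving out wild type replicate 3 (1.53%). Without wild type replicate 1, 0 of 8 were called, where 0.837% of all genes were called higher. Without Atp7b-/- replicate 3, 0 of 8 were called, where 0.742% of all genes were called higher. In the 4 libraries read from 1 end, 0 of 7 were called (edgeR adjusted p from 0.058 to 0.242), where 0.844% of all genes were called higher. At an unadjusted p under 0.05 it was 7 of 7, against 14.2% of all genes in either direction. Kif20a and Kif23 failed the filter there, and the 7 left passed it only through the Atp7b-/- libraries. The filter thus kept only kinesins that were high in Atp7b-/-, and the 2 shares are not a like comparison. Without the layout term, 0 were called here and 0% over all genes, although 7 of the 9 had an unadjusted p under 0.05, against 4.2% of all genes. Without the 2 libraries whose sex-linked transcripts went against their labels, which leaves a single wild type library in the comparison, 2 of 9 were called, Kif11 and Kif22, where 1.64% of all genes were called higher. In each of these settings every one of the 6 kinesins called with all libraries kept a positive log2 fold change.

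**Figure D4:**
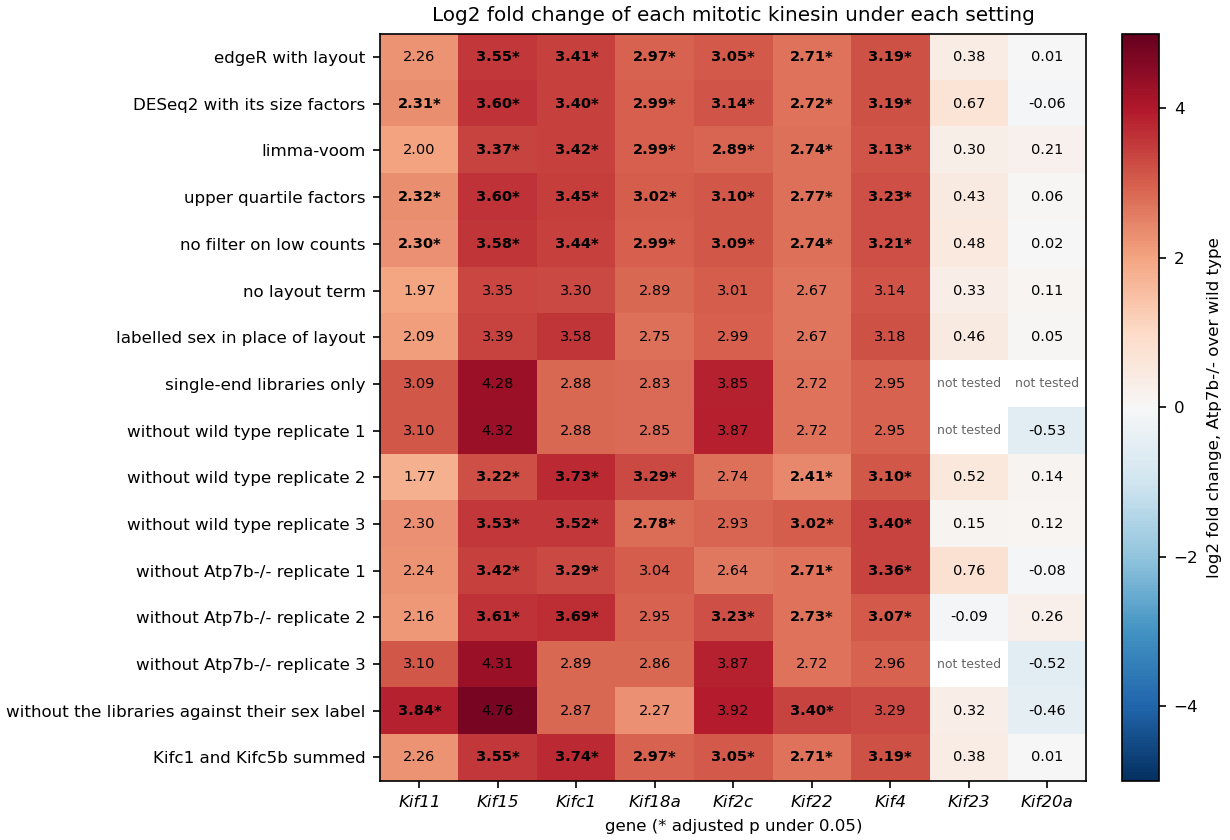
Log2 fold change of each tested kinesin, Atp7b-/- over wild type, in edgeR with layout and under each alternative to the processing, as coloured cells. Values in bold with an asterisk were called at an adjusted p under 0.05. Kif2c, Kif4, Kif11, Kif15, Kif18a, Kif22 and Kifc1 stay above 1.7 in all settings, and Kif20a lies on both sides of 0.

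Per kilobase of exon, the order of levels in Atp7b-/- liver ran from Kifc1 (1.65 ± 0.431 CPM per kilobase), Kif4 (0.955 ± 0.338) and Kif22 (0.927 ± 0.0118) down to Kif23 (0.0825 ± 0.0648) and Kif14 (0.0265 ± 0.00374; SD, n = 3 each). Neighbours in this order differed by more than their SD only between Kifc1 and Kif4 and between Kif22 and Kif11. In wild type liver the highest level per kilobase was that of Kif20a, at 0.287 ± 0.0718 CPM per kilobase, and Kifc1 came next at 0.174 ± 0.0811 CPM per kilobase (SD, n = 3 each). With the longest transcript as the length, Kifc1 was again the highest and Kif14 the lowest in Atp7b-/- liver, and Kif22 came before Kif4.

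A further 7 kinesins with known roles in mitosis were listed, and of the 6 tested 4 rose and 0 fell. Over all genes tested, 1.9% were called higher and 0.585% lower. Of the 4 that rose, all but Kif24 passed the count filter only through the Atp7b-/- libraries. The filter thus favours a rise among them, and these shares are not a like comparison. Kif20b, which acts in cytokinesis, averaged 17.5 ± 10.9 CPM in Atp7b-/- and 1.17 ± 0.601 CPM in wild type, with a log2 fold change of 3.97 and an edgeR adjusted p of 0.000951. Kif18b, a regulator of astral microtubules, averaged 6.33 ± 2.79 CPM in Atp7b-/- and 0.448 ± 0.329 CPM in wild type (log2 fold change 4.06, edgeR adjusted p 0.00196). Every Atp7b-/- library was above every wild type library for both, as for 5.23% of all genes tested, which is not a like comparison either. Cenpe, the motor that carries chromosomes to the spindle equator, averaged 6.38 ± 2.21 CPM in Atp7b-/- and 0.823 ± 0.619 CPM in wild type (log2 fold change 3.14, edgeR adjusted p 0.0204). Kif24, which acts at centrioles, averaged 4.49 ± 0.445 CPM in Atp7b-/- and 1.17 ± 0.248 CPM in wild type (log2 fold change 1.95, edgeR adjusted p 0.0275; SD, n = 3 each for all 4). The log2 fold change was 0.25 for Kif2a (edgeR adjusted p 0.739) and -0.15 for Kif3b (edgeR adjusted p 0.835), and Kif2b failed the count filter. The calls of Kif20b and Kif18b were kept when any 1 library was left out. Kif24 kept its call only when the library left out was wild type replicate 2. Cenpe lost its call when the library left out was Atp7b-/- replicate 2, Atp7b-/- replicate 3 or wild type replicate 1. Without the libraries against their sex labels 3 were called, all but Kif24, where 1.64% of all genes were called higher.

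Of the 26 other kinesins, most of which carry cargo or act in cilia, 19 were tested, 1 rose and 0 fell. Over all genes tested, 1.9% were called higher, 0.585% lower and 2.49% in either direction. The median log2 fold change of the other kinesins was -0.16. Without the libraries against their sex labels 1 of 18 was called, again Kifc5b, where 1.64% of all genes were called higher. The 1 that rose was Kifc5b, the near-identical copy of Kifc1, with 6.53, 5.75 and 5.96 CPM across the Atp7b-/- libraries, against 0.183, 0.425 and 0.556 CPM in the wild type libraries (log2 fold change 4.16, edgeR adjusted p 0.00181). The next smallest p-values were those of Kifc2, with a log2 fold change of -0.71 (edgeR adjusted p 0.279), and of Kifc3, with 0.86 (0.282). Of the kinesin light chains, 3 of 4 were tested and 0 were called. Of 20 dynein and dynactin genes, which form the minus-end motor of most cells, 19 were tested and 0 were called, with a median log2 fold change of 0.13. In both lists 0 genes had an unadjusted p under 0.05 in edgeR, against 14.5% of all genes tested. In both, 0 were called by DESeq2 or by limma-voom, where 3.6% and 2.23% of all genes were called higher.

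Of 28 partners and regulators of the mitotic kinesins, 26 were tested, 14 rose, 0 fell and 12 were not called. Over all genes tested, 1.9% were called higher and 0.585% lower. Most of the 14 passed the count filter only through the Atp7b-/- libraries, Psrc1 and Tpx2 among them. The filter thus favours a rise, and the shares over all genes in this paragraph are not a like comparison. The median log2 fold change of the partners was 2.41. The number called was 8 without Atp7b-/- replicate 3 (0.742% of all genes called higher) and 9 without wild type replicate 1 (0.837%). It was 12 to 14 without any other library (1.32% to 1.75%). It was 11 without the libraries against their sex labels (1.64%). DESeq2 called 16 higher, where 3.6% of all genes were, adding Incenp and Nek6. It called 1 lower, the phosphatase subunit gene Ppp1cc, whose edgeR log2 fold change was -0.88 (adjusted p 0.0985). For spindle assembly, Tpx2, which targets Kif15 and Aurka to the spindle, averaged 8.80 ± 2.96 CPM in Atp7b-/- and 0.563 ± 0.334 CPM in wild type (log2 fold change 3.84, edgeR adjusted p 0.00139). Aurka, the pole kinase, averaged 11.5 ± 2.89 CPM in Atp7b-/- and 2.53 ± 0.22 CPM in wild type (2.18, adjusted p 0.00501). Hmmr, Nusap1 and Ckap2, which bind spindle microtubules, rose with log2 fold changes of 3.19, 2.94 and 3.63 (edgeR adjusted p 0.0373, 0.02 and 0.00677). Psrc1, a further microtubule-binding protein, also rose (edgeR adjusted p 0.0011), with 289 counts in the Atp7b-/- libraries and 2 in the wild type libraries, a ratio of 106 with an exact 95% counting interval of 29.0 to 878. For all 6 of these genes every Atp7b-/- library was above every wild type library, as for 5.23% of all genes tested. These 6 were named because they were called, so this share is not a like comparison.

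At the midzone, Racgap1, the partner of Kif23 in centralspindlin, had 11.4, 12.3 and 10.4 CPM across the Atp7b-/- libraries, against 0.868, 0.935 and 1.85 CPM in the wild type libraries (log2 fold change 3.34, edgeR adjusted p 0.00139). Ect2, the exchange factor that centralspindlin recruits, rose by 4.07 on the log2 scale (edgeR adjusted p 0.00102). Prc1, which bundles midzone microtubules and binds Kif4 and Kif14, rose by 2.80 on the log2 scale (edgeR adjusted p 0.00343). Kif23 itself overlapped between the genotypes in these libraries. Of the chromosomal passenger complex, which Kif20a carries, Birc5, Cdca8 and Aurkb rose with log2 fold changes of 4.10, 2.79 and 2.65 (edgeR adjusted p 0.00102, 0.00703 and 0.0331), and Incenp had 1.39 (adjusted p 0.0701). The kinases Cdk1 and Plk1, which phosphorylate several of these motors, rose with log2 fold changes of 4.03 and 2.71 (edgeR adjusted p 0.00139 and 0.0179). For Cit, the citron kinase that Kif14 binds, the log2 fold change was -0.18 (edgeR adjusted p 0.89).

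**Figure D5:**
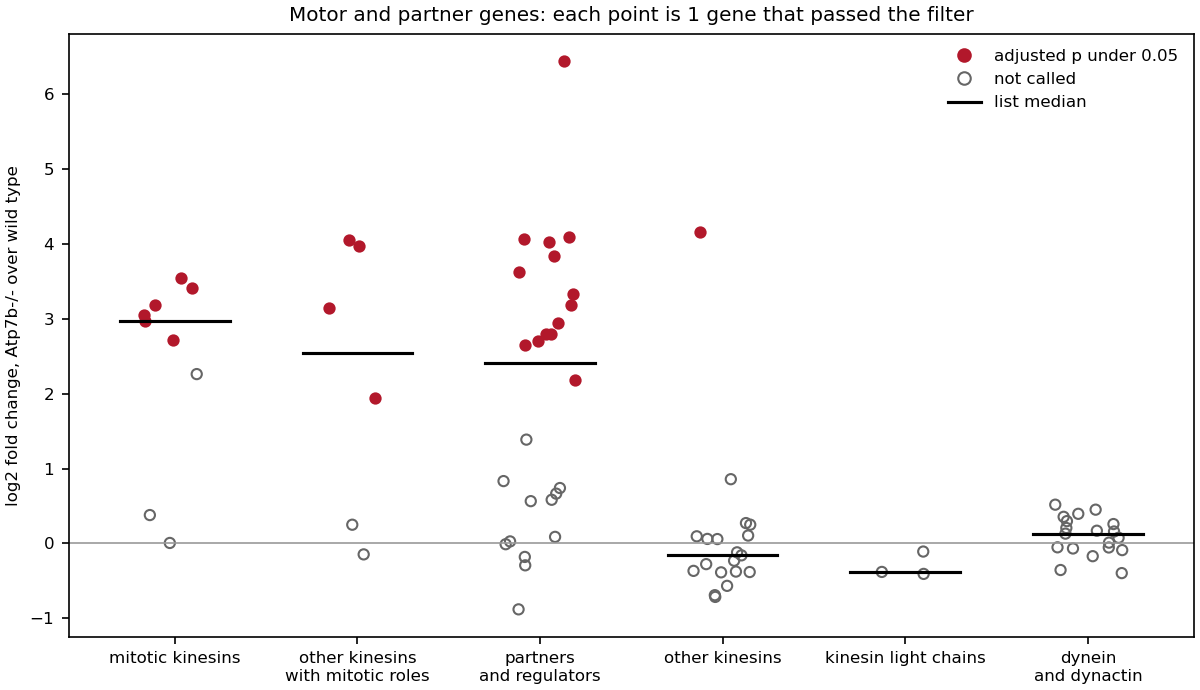
Log2 fold changes, Atp7b-/- over wild type, of the tested genes of each list, with filled points for an adjusted p under 0.05 and a bar for the list's median. The medians are 2.97 for the mitotic kinesins, -0.16 for the other kinesins, 0.13 for dynein and dynactin and 2.41 for partners and regulators.

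Genes of similar pattern were sought among non-members above a minimum mean level, with predicted genes and pseudogenes left out. The 5 closest over the 6 libraries to the mean pattern of the 9 tested kinesins were Cenpa, Aurka, Suv39h1, Smoc2 and Ndc1. Their root mean square distances were 0.15, 0.159, 0.163, 0.165 and 0.166 in log2 CPM centred within layout. Of the kinesins themselves, Kif22 lay closest to their mean, at a distance of 0.353, and Kif20a farthest, at 1.27. These distances describe the 6 libraries and carry no test.

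Of 49 markers of liver cell types, 40 were tested and 0 were called by edgeR, against 2.49% of all genes tested in either direction. At an unadjusted p under 0.05 it was 4 of the 40, against 14.5% of all genes tested. Limma-voom also called 0, and DESeq2 called the cholangiocyte marker Sox9 higher. With no filter, Sox9, Spp1 (cholangiocyte) and Hbb-bs (erythroid) were called higher, and without the libraries against their sex labels the erythroid marker Alas2 was. The summed level of the 8 hepatocyte markers ran from 65681 to 68667 CPM in the Atp7b-/- libraries and from 80497 to 109131 CPM in the wild type libraries, without overlap, and these markers of the labelled tissue were far above those of any other list. The 8 erythroid markers ran from 229.5 to 368 CPM in Atp7b-/- and from 65.0 to 256 CPM in wild type, with overlap. The 8 lymphocyte markers ran from 7.58 to 18.2 CPM in Atp7b-/- and from 6.86 to 15.2 CPM in wild type, and the 7 Kupffer cell or macrophage markers from 189 to 273 CPM in Atp7b-/- and from 172 to 357 CPM in wild type. The 6 endothelial markers ran from 152 to 342 CPM in Atp7b-/- and from 166 to 472 CPM in wild type, and the 6 stellate or fibroblast markers from 288 to 368 CPM in Atp7b-/- and from 236 to 484 CPM in wild type. The 6 cholangiocyte markers ran from 29.2 to 78.0 CPM in Atp7b-/- and from 21.8 to 51.4 CPM in wild type, and 0 of the 49 markers were at 0 in every library. The mitochondrial share of counts was 4.15%, 4.09% and 8.14% across the Atp7b-/- libraries, against 7.74%, 2.57% and 2.50% in the wild type libraries. The summed hepatocyte markers were lower in every Atp7b-/- library than in every wild type library. Taken singly, each of these markers overlapped between the groups. Alb, for example, had 49860 CPM in Atp7b-/- replicate 3 and 42891 CPM in wild type replicate 3. Within each layout, the summed erythroid markers, the summed cholangiocyte markers and the mitochondrial share were higher in every Atp7b-/- library than in every wild type library. The summed endothelial markers were lower. In every Atp7b-/- library Alas2 was the highest of the erythroid markers. Taken singly, not all markers followed these sums. In the libraries read from 1 end, Epor (erythroid) went the other way, and Tfrc (erythroid), Krt19 (cholangiocyte) and Lyve1 (endothelial) overlapped. For scale, 23.5% of all genes tested had both Atp7b-/- libraries read from 1 end above both such wild type libraries. The part of these markers and of the mitochondrial share in the kinesin results was not tested.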

How the data were processed

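RNA-seq was made from whole liver of 3 Atp7b-/- and 3 wild type mouse samples with 54-base reads. The authors deposited raw counts per Ensembl gene for the 6 libraries. Per the submitters' processing notes these involved STAR 2.4, featureCounts, edgeR 3.8 and the genome build GRCm38; the annotation release, strand setting and treatment of read pairs were not found in the labels or notes. Groups and layout were taken from the labels. All 41388 genes (16258 at 0 in every library) entered 1 table; 40254 had a symbol in GENCODE and 1134 had none. Total counts ran from 5919389 to 25973968 per library, so 3 counts correspond to at most 0.556 CPM.

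Counts were analysed in R 4.3.3 with edgeR 4.0.16: filterByExpr (minimum count 10, 12988 genes kept), TMM factors from 0.9124 to 1.122, a robust quasi-likelihood fit on genotype plus layout, and Benjamini-Hochberg adjustment over all genes tested, with calls at an adjusted p under 0.05. The SE was taken from the log2 fold change and its F statistic. The script was tested on simulated data with known changes. Libraries of a group differed by more than counting error, so none were merged. Alternatives were DESeq2 1.42.0, limma-voom (limma 3.58.1), upper quartile factors, no filter, no layout term, labelled sex in place of layout, libraries read from 1 end only, leaving out each library, and a threshold of 0.01. Leaving out the 2 libraries against their sex labels, and summing Kifc1 and Kifc5b, were added after seeing the data. The members and lists were chosen with earlier results of these data known. All members and the 7 further mitotic kinesins were named; of the other kinesins, light chains, dynein and dynactin genes, every called gene and a few with the smallest p; of the partners, the called genes and those tied to an uncalled member. Pattern distances used log2 CPM with a prior count of 2. Levels between genes were compared per kilobase of union exon length.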

Additional observations from a re-analysis of the deposited data

Results flagged for a closer look

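Kif20a moved in opposite directions in the layouts. In the libraries read from 1 end, the Atp7b-/- libraries had 0.933 and 0.421 CPM, both below the 1.02 and 1.11 CPM of the wild type libraries. In the libraries read from both ends, the Atp7b-/- library had 2.55 CPM, above the 1.60 CPM of the wild type library. The genotype change in the libraries read from both ends minus that in the libraries read from 1 end was 1.19 on the log2 scale (SE 0.97, 95% interval -1.07 to 3.46), with an unadjusted p of 0.255 and an adjusted p of 0.987 in edgeR's quasi-likelihood test, so the difference did not pass the test. Layout and labelled sex cannot be told apart in this difference.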

How the results depend on the processing

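The number of kinesins called was 6, where 1.9% of all genes tested were called higher. It was 7 by DESeq2 (3.6% of all genes), with upper quartile factors (2.01%) and with no filter (2.67%), each adding Kif11. Limma-voom gave 6 (2.23%), as did Kifc1 and Kifc5b summed (1.89%). With no layout term it was 0, and with labelled sex in place of layout 0, and in both 0% of all genes were called higher. In the libraries read from 1 end it was 0 (0.844%), and at an adjusted p under 0.01 it was 3 (0.986%). Leaving out 1 library at a time gave 0 to 5. It was 0 without wild type replicate 1 (0.837%) or Atp7b-/- replicate 3 (0.742%), and 4 without Atp7b-/- replicate 1 (1.32%). It was 5 without wild type replicate 2 (1.75%), wild type replicate 3 (1.53%) or Atp7b-/- replicate 2 (1.71%). Without the libraries against their sex labels, Atp7b-/- replicates 1 and 2 were compared with wild type replicate 2 alone, on 1 residual degree of freedom. Where wild type replicate 1 or Atp7b-/- replicate 3 is left out, the lone library read from both ends is absorbed by the layout term, so that the genotypes are compared over the 4 others. The sign of the Kif20a log2 fold change turned to -0.061 by DESeq2 and to -0.46 without the libraries against their sex labels, and it ran from -0.53 to 0.26 when 1 library was left out; the cause was not tested. For Kif23 it ran from -0.086 to 0.76 in the 4 of 6 cases of 1 library left out that gave a value, the negative value being that without Atp7b-/- replicate 2; the cause was not tested. Kif2c, Kif4, Kif11, Kif15, Kif18a, Kif22 and Kifc1 had positive log2 fold changes in all 15 alternatives. Kif20a and Kif23 failed the filter in the libraries read from 1 end, and Kif23 also without wild type replicate 1 or Atp7b-/- replicate 3. No paired analysis was possible because the replicate numbers follow accession order and pair no libraries. The wild type counts, 3 to 62 per kinesin over 3 libraries, limit the precision of every fold change.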

Other observations

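Kpna2, an importin listed among the partners of the kinesins, failed the count filter and was detected mainly in the libraries read from both ends. It had 0.583, 0.281 and 20.9 CPM in Atp7b-/- replicates 1, 2 and 3, against 16.6, 0.34 and 0 CPM in wild type replicates 1, 2 and 3. Kif5b, a cargo motor, had 30.5, 52.1 and 117 CPM across the Atp7b-/- libraries, against 120 CPM in wild type replicate 1 and 27.7 and 34.8 CPM in wild type replicates 2 and 3, so for both genes the library read from both ends was the highest of each genotype. These genes were chosen after their values were seen.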
